A study of Mus musculus with 6 samples.

Results

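Genes that make, inactivate or sense oxysterols were followed in chronic stroke infarcts. They were chosen by symbol, namely *Ch25h*, *Cyp7b1*, *Hsd3b7*, *Gpr183*, *Cyp27a1*, and *Cyp46a1*, and all 6 were among the 46078 genes of each count table. All 6 also passed the filter on low counts, as 6 of 15554 tested genes. RNA came from wild-type male C57BL/6J mice, recorded as 3 months of age, at 7 weeks after the distal middle cerebral artery was permanently occluded and the mice were kept in low oxygen. Bulk RNA-Seq was performed on 3 infarcts and on 3 equivalent regions of the contralateral cortex, both dissected by eye. The contralateral cortices also came from mice with a stroke, so that no tissue from unoperated mice serves as the control here. Libraries of a region are numbered 1, 2 and 3 in the sample records, which do not name the mouse, give no drug treatment and do not say which samples were collected from 1 animal.

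Oxysterols are cholesterol molecules that carry an added hydroxyl group, which lets them leave a cell and act as signals. Brain cholesterol cannot cross the blood-brain barrier as such, and neurons convert part of it with CYP46A1 to 24-hydroxycholesterol, which leaves through the barrier. Activated macrophages make 25-hydroxycholesterol with CH25H. CYP7B1 adds a further hydroxyl group to it, and the product attracts B cells, T cells and dendritic cells that carry the receptor GPR183, until HSD3B7 oxidizes the product and ends its activity. CYP27A1 makes 27-hydroxycholesterol in mitochondria, and several of these oxysterols are ligands of the nuclear receptors LXR.

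In infarcts, *Ch25h*, *Gpr183*, *Cyp27a1*, and *Hsd3b7* were upregulated, *Cyp46a1* was downregulated and *Cyp7b1* did not pass the test. Calls required a Benjamini-Hochberg adjusted *p* below 0.05 and a more than 2-fold difference. By this rule 4 of the 6 oxysterol genes were upregulated and 1 was downregulated, where the background over all tested genes was 25.7% upregulated and 20.9% downregulated, or 46.6% in either direction. The median log2 fold change was 2.35 over the 6 genes and 0.03 over all tested genes. Levels are CPM, read counts relative to the library size after TMM scaling in edgeR, and folds are infarct over contralateral cortex.

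**Figure D1:**
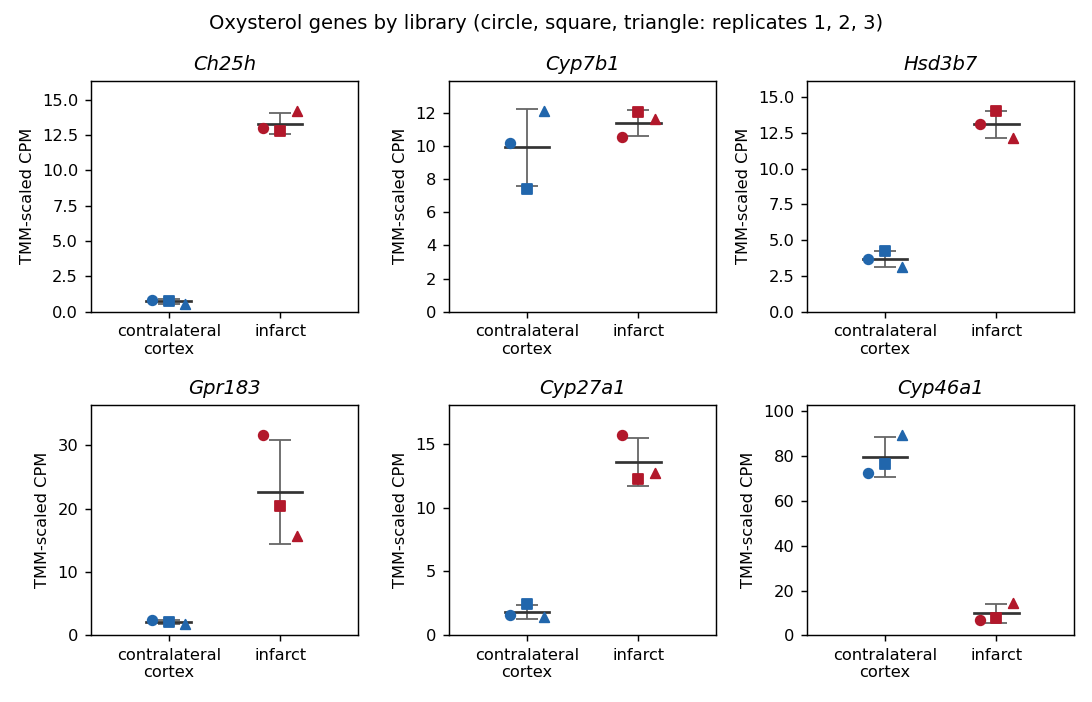
TMM-scaled CPM of the 6 genes in each library (vertical axes, all starting at 0, with separate scales), with blue points for contralateral cortices and red points for infarcts. Horizontal bars are the means and error bars the SD of 3 libraries. The regions overlap for *Cyp7b1* alone, and for *Cyp46a1* infarcts lie below contralateral cortices.

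Sequence before the start of transcription was taken from RefSeq (GRCm38.p6), which had an entry for 5 of the 6 genes. The 250 bases before the start are shown for the strongest rise, for the receptor and for the gene that fell, since these differ in base composition. Capitals mark matches to the motifs searched.
*Ch25h* (chr19:34475149-34475398, minus strand): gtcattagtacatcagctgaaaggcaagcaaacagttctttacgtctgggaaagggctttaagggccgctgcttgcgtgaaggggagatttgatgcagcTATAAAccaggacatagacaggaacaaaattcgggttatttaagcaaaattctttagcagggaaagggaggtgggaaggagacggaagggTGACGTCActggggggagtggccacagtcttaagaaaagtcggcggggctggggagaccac
*Gpr183* (chr14:121965194-121965443, minus strand): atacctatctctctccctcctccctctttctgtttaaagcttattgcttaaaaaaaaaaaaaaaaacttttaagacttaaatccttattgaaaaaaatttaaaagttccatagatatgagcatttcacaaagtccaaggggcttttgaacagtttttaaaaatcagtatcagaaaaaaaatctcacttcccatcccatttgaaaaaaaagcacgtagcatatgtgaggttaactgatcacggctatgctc
*Cyp46a1* (chr12:108334066-108334315, plus strand): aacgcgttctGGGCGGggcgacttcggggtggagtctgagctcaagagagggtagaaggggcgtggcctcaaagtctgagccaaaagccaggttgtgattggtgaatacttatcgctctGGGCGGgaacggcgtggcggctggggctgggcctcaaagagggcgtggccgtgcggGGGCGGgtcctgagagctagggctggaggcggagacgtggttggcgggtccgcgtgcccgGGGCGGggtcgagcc

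On both strands, 9 motifs were searched, namely the TATA box TATAAA, the cyclic AMP response element TGACGTCA, the GC box GGGCGG, the AP-1 site TGANTCA, the ETS-type sequence GAGGAA, the E-box CACGTG, the LXR element, which is AGGTCA repeated after a gap of 4 bases, the interferon-type sequence, which is GAAA repeated after a gap of 2 bases, and the NF-kB sequence, which is GGGAC followed directly by TTTCC. The *Ch25h* window holds TGACGTCA starting 61 bases before the start, a motif found in 1.55% of 32851 such windows, and TATAAA starting 151 bases before the start, found in 12.4%. The *Cyp46a1* window holds GGGCGG at 4 places, with at least 1 match in 32.7% of all windows, and 1 match each was found on the other strand in the windows of *Hsd3b7* and *Cyp27a1*. No motif matched in the *Gpr183* window. GC content was 67.6% for *Cyp46a1*, 50.4% for *Ch25h* and 32.0% for *Gpr183*, compared with a median of 52.4% over all windows. A match is a run of letters and was not tested as a binding site.

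*Ch25h* is a gene of 1 exon (ENSMUSG00000050370, GRCm38 chromosome 19, 34473778 to 34475164, minus strand). It encodes the enzyme that makes 25-hydroxycholesterol, which is not a cytochrome P450, in contrast to the 3 Cyp enzymes. It had 12.98, 12.78 and 14.20 CPM in infarcts 1, 2 and 3, and 0.836, 0.781 and 0.554 CPM in contralateral cortices 1, 2 and 3. All 3 infarcts lay far above all 3 contralateral cortices, which held 16, 12 and 6 counts. On the log2 scale *Ch25h* was 4.15 higher in infarcts (SE 0.26, 95% interval 3.58 to 4.73, edgeR quasi-likelihood adjusted *p* = 8.56e-07). This was the largest rise among the 6 genes, and 889 of the tested genes had a larger log2 fold change. Exons of the noncoding gene *Gm26902* on the other strand cover 11.5% of the *Ch25h* exon bases, and *Gm26902* itself averaged 1.19 CPM in the infarct and 0.886 CPM contralaterally, which did not pass the test (log2 fold change 0.46, edgeR adjusted *p* = 0.374). In bulk tissue, a change in the number of cells of a type and a change in the RNA per cell cannot be told apart, here or for the other genes.

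*Gpr183* encodes the receptor for the CYP7B1 product, also called EBI2 (ENSMUSG00000051212, chromosome 14, 121952551 to 121965195, minus strand). It had 31.6, 20.3 and 15.7 CPM in infarcts 1, 2 and 3, and 2.46, 2.08 and 1.85 CPM in contralateral cortices 1, 2 and 3. The regions did not overlap, infarct 1 was the highest, and among infarcts the receptor had the largest SD of the 4 upregulated genes (22.6 ± 8.19 CPM, mean ± SD, n = 3). The receptor transcript was 3.38 higher on the log2 scale (SE 0.30, edgeR adjusted *p* = 8.32e-06). The log2 difference was 3.08 without infarct 1 and 3.60 without infarct 3. The whole gene lies within *Ubac2* on the other strand, with no exon base shared. *Ubac2* itself averaged 31.2 ± 6.69 CPM in the infarct and 20.7 ± 2.94 CPM contralaterally, a log2 fold change of 0.59 that missed the fold threshold.

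*Cyp7b1* encodes the hydroxylase between *Ch25h* and *Gpr183* in the route (ENSMUSG00000039519, chromosome 3, 18071950 to 18243338, minus strand, 6 exons). Its values were 10.51, 12.04 and 11.60 CPM in infarcts 1, 2 and 3, and 10.19, 7.42 and 12.09 CPM in contralateral cortices 1, 2 and 3. The regions overlapped, with contralateral cortex 2 the lowest and contralateral cortex 3 the highest of the 6 libraries. Its log2 fold change of 0.21 did not pass the test (SE 0.22, 95% interval -0.28 to 0.70, edgeR adjusted *p* = 0.426). The interval includes 0 and ends short of a 2-fold change in either direction. Without contralateral cortex 2 the log2 fold change was 0.03.

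*Hsd3b7* encodes the enzyme that inactivates the GPR183 ligand (ENSMUSG00000042289, chromosome 7, 127800604 to 127803802, plus strand). It had 13.1, 14.0 and 12.1 CPM in infarcts 1, 2 and 3, compared with 3.66, 4.23 and 3.14 CPM in contralateral cortices 1, 2 and 3. The regions did not overlap, and the difference of 1.82 on the log2 scale was the smallest of the 4 called increases (SE 0.21, edgeR adjusted *p* = 4.45e-05). In GENCODE M21, 62.0% of the *Hsd3b7* exon bases are also exonic in *Gm49388*, which has the same orientation, and 62.4% in *9430064I24Rik*, which has the opposite one. Neither gene was analyzed here, and the annotation used for counting is not given in the sources used here, so how reads were divided among them is uncertain.

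*Cyp27a1* encodes the mitochondrial enzyme that makes 27-hydroxycholesterol (ENSMUSG00000026170, chromosome 1, 74713574 to 74737892, plus strand). It had 15.7, 12.3 and 12.7 CPM in infarcts 1, 2 and 3, and 1.57, 2.47 and 1.48 CPM in contralateral cortices 1, 2 and 3. Each infarct lay above each contralateral cortex, and the log2 difference was 2.87 (SE 0.27, edgeR adjusted *p* = 1.10e-05). This difference was 3.13 without contralateral cortex 2, the highest of that region. No exon of another gene overlaps *Cyp27a1*, which also holds for *Cyp7b1*, *Gpr183*, and *Cyp46a1*.

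*Cyp46a1* encodes the neuronal cholesterol 24-hydroxylase (ENSMUSG00000021259, chromosome 12, 108334381 to 108362234, plus strand, 14 exons). It had 7.09, 7.64 and 14.6 CPM in infarcts 1, 2 and 3, and 72.3, 76.4 and 89.4 CPM in contralateral cortices 1, 2 and 3. Infarct 3 held the most among infarcts and still lay far below every contralateral cortex. The gene fell by 3.02 on the log2 scale (SE 0.28, edgeR adjusted *p* = 1.46e-05), and 458 of the tested genes had a larger decrease. Without infarct 3 it fell by 3.41. Infarct and contralateral values were free of overlap for 5 of the 6 genes, and for 72.3% of all tested genes.

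Levels of different genes were compared as CPM per kilobase of merged exons, in which a long and a short gene are on the same scale. In every contralateral cortex *Cyp46a1* ranked first, with a mean of 24.2 ± 2.71 CPM per kilobase, followed by *Cyp7b1* with 4.57 ± 1.08 and *Hsd3b7* with 1.33 ± 0.198. *Cyp27a1*, *Gpr183*, and *Ch25h* came last, with 0.846 ± 0.254, 0.737 ± 0.106 and 0.522 ± 0.108 CPM per kilobase, and ranges overlapped for *Hsd3b7* and *Cyp27a1* and for *Cyp27a1* and *Gpr183*. Of the summed level of the 6 genes, *Cyp46a1* held 75.1% in contralateral cortices and 8.12% in infarcts. In infarcts, *Ch25h* had 9.60 ± 0.553 CPM per kilobase and *Gpr183* 7.81 ± 2.84, compared with 6.24 ± 0.859 for *Cyp27a1*, 5.26 ± 0.363 for *Cyp7b1*, 4.73 ± 0.339 for *Hsd3b7* and 2.97 ± 1.27 for *Cyp46a1*. The ranges of neighbors in this infarct order overlapped for *Ch25h* and *Gpr183*, *Gpr183* and *Cyp27a1*, *Cyp7b1* and *Hsd3b7*, and *Hsd3b7* and *Cyp46a1*. *Cyp46a1* was last in infarcts 1 and 2, and *Hsd3b7* was last in infarct 3. The place of *Hsd3b7* in either region is uncertain, since genes with shared exons may affect its reads.

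**Figure D2:**
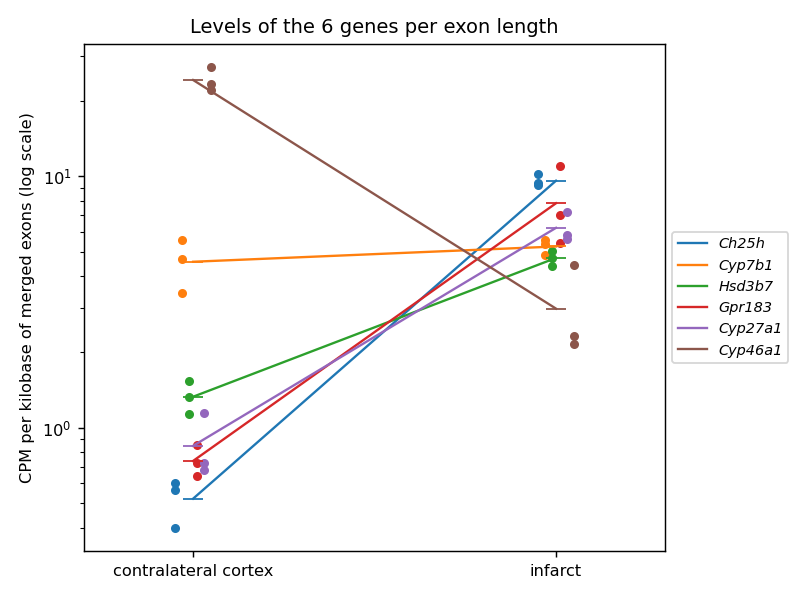
Levels of the 6 genes in CPM per kilobase of merged exons (vertical axis, log scale) in contralateral cortices and infarcts. Points are libraries, bars are means of 3, and lines join the means of a gene. *Cyp46a1* drops from 24.2 to 2.97, *Cyp7b1* has means of 4.57 and 5.26, and the other 4 genes rise.

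Ratios were taken within each library, where the scaling of libraries cancels apart from the pseudocount of 0.5 CPM added to each value. Those among *Ch25h*, *Cyp7b1*, and *Hsd3b7* compare enzymes that act in sequence. The ratio of *Cyp27a1* to *Cyp46a1* compares enzymes that make different oxysterols, and the others set a gene against summed cell type markers. With 3 against 3 libraries, an exact two-sided permutation test cannot give a *p* below 0.1, and 10 ratios were tested. The log2 ratio of *Ch25h* to *Cyp7b1* was 0.29, 0.08 and 0.28 across infarcts 1, 2 and 3 and -3.00, -2.63 and -3.58 across contralateral cortices 1, 2 and 3. *Ch25h* counts were thus near those of *Cyp7b1* in infarcts and far below them in every contralateral cortex. Per kilobase of exons, *Ch25h* was above *Cyp7b1* in every infarct, at 9.36, 9.21 and 10.2 CPM in infarcts 1, 2 and 3. *Cyp7b1* had 4.85, 5.56 and 5.36 CPM per kilobase there. The log2 ratio of *Ch25h* to *Cyp7b1* differed by 3.29 between regions, several times the SD of either region (exact permutation *p* = 0.10, adjusted *p* = 0.111). The size of this difference depends on the pseudocount, and it ranged from 2.85 to 3.82 over all alternatives.

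The ratio of *Cyp7b1* to *Hsd3b7*, of the enzyme that makes the GPR183 ligand to the enzyme that removes it, moved the other way. Its log2 value was -0.31, -0.21 and -0.06 across infarcts 1, 2 and 3 and 1.36, 0.74 and 1.79 across contralateral cortices 1, 2 and 3. *Cyp7b1* counts exceeded those of *Hsd3b7* in each contralateral cortex and in no infarct, a difference of -1.49 on the log2 scale (exact permutation *p* = 0.10, adjusted *p* = 0.111). Counts do not allow for gene length. Per kilobase of exons, *Cyp7b1* was above *Hsd3b7* in each infarct too, at 4.85, 5.56 and 5.36 CPM in infarcts 1, 2 and 3. *Hsd3b7* had 4.75, 5.07 and 4.39 CPM per kilobase there. For *Ch25h* to *Hsd3b7*, the difference was 1.79 on the log2 scale, from a mean of -1.77 ± 0.12 in contralateral cortices to 0.02 ± 0.18 in infarcts, with the same *p* values from the exact permutation test. This last difference depends on the pseudocount, since *Ch25h* was low in contralateral cortices, and was 2.23 with 0.1 CPM and 1.46 with 1 CPM. Since the division of reads at *Hsd3b7* is uncertain, log2 ratios to it near 0 cannot be read as equal levels. The ratio of *Cyp27a1* to *Cyp46a1* rose by 5.63 on the log2 scale, from -5.11 ± 0.41 to 0.52 ± 0.65 (exact permutation *p* = 0.10, adjusted *p* = 0.111). In contralateral cortices *Cyp46a1* was counted well above *Cyp27a1*, and in infarcts 1 and 2 the order of counts was turned. Per kilobase of exons it was turned in infarct 3 as well, with 5.84 CPM for *Cyp27a1* and 4.44 CPM for *Cyp46a1*.

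**Figure D3:**
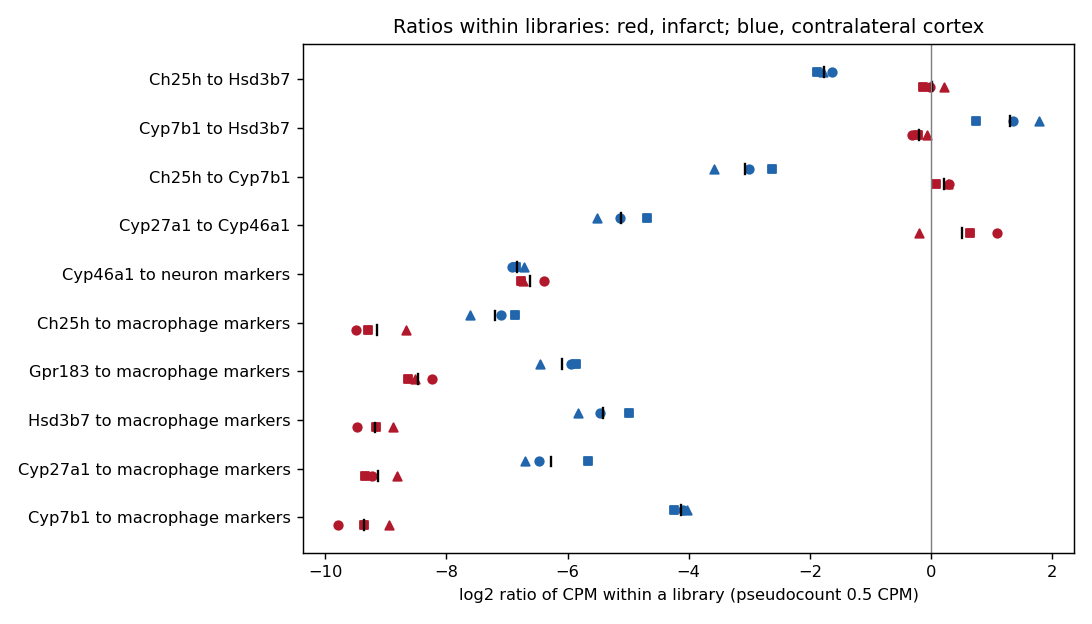
Log2 ratios of CPM within each library for 10 pairs (horizontal axis, pseudocount 0.5 CPM), with red points for infarcts and blue points for contralateral cortices, shapes for the replicate number and bars for the means of 3. The regions are apart in 9 of 10 ratios and overlap for *Cyp46a1* to neuron markers. The macrophage markers plotted include *Lyz2*, without which the regions also overlap for *Ch25h* and *Gpr183*.

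Markers of several cell types also differed between regions, and their part in the results for the 6 genes was not tested. The ratios given here set a gene against summed markers and cannot tell the number of cells from the RNA per cell. Of 8 neuron markers, 8 were downregulated, with a median log2 fold change of -3.07, and their summed level was 632, 885 and 1608 CPM in infarcts 1, 2 and 3, and 8767 to 9523 CPM in contralateral cortices. Infarct 3, which had the most *Cyp46a1*, also had the highest neuron sum among infarcts. The log2 ratio of *Cyp46a1* to this sum was -6.38, -6.77 and -6.73 across infarcts 1, 2 and 3 and -6.91, -6.86 and -6.73 across contralateral cortices 1, 2 and 3. The regions overlapped, with a difference of 0.20 on the log2 scale (exact permutation *p* = 0.30, adjusted *p* = 0.30) that ranged from 0.08 to 0.27 when single libraries were omitted. The SD of this ratio was 0.21 in infarcts and 0.10 in contralateral cortices, so that the difference was close to the former and above the latter. Without *Syt1*, the most abundant of the neuron markers, the difference was 0.08 (exact permutation *p* = 0.60).

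Of 9 macrophage markers, such as *Lyz2*, *Msr1*, and *Adgre1*, 9 were upregulated, with a median log2 fold change of 5.86. Their summed level was 9720, 8289 and 5972 CPM in infarcts 1, 2 and 3, and 150 to 205 CPM in contralateral cortices. *Lyz2*, which encodes lysozyme, made up 80.7% of this sum in infarcts and 10.3% in contralateral cortices, and the other 8 markers summed to 1867, 1459 and 1307 CPM in infarcts 1, 2 and 3, and to 136 to 181 CPM in contralateral cortices. Ratios to the macrophage markers therefore depended on *Lyz2*. For *Ch25h*, the difference of the log2 ratio between regions was -1.96 with all 9 markers and 0.25 without *Lyz2*, where the regions overlapped (exact permutation *p* = 0.50). For *Gpr183* it was -2.38 with all 9 markers and -0.18 without *Lyz2*, also with overlap (exact permutation *p* = 0.50). *Cyp27a1*, *Hsd3b7*, and *Cyp7b1* were lower relative to the markers in infarcts with either sum and without overlap (exact permutation *p* = 0.10 for each). Their differences were -2.86, -3.75 and -5.24 with all 9 markers and -0.65, -1.55 and -3.04 without *Lyz2*. The sum without *Lyz2* was added after the values were seen.

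B cells, T cells and dendritic cells carry GPR183 in lymphoid tissue. The summed level of 6 B cell markers was 355, 174 and 150 CPM in infarcts 1, 2 and 3, and at most 0.831 CPM in contralateral cortices. The sum of 6 T cell markers was 136, 51.3 and 35.0 CPM in infarcts 1, 2 and 3, and at most 3.52 CPM in contralateral cortices. For 7 dendritic cell markers it was 483, 343 and 306 CPM in infarcts 1, 2 and 3, and 25.4 to 26.8 CPM in contralateral cortices. *Itgax*, an integrin gene that macrophages and microglia also express, made up 88.4% of the dendritic cell sum in infarcts, and without it the sum was 51.7, 47.9 and 31.3 CPM in infarcts 1, 2 and 3, and 24.3 to 26.6 CPM in contralateral cortices. Infarct 1 was the highest and infarct 3 the lowest in each of these sums and in the macrophage sum, which is also the order of *Gpr183*. The sums of the endothelial markers and of the LXR target genes had the same order, so that it was not limited to markers of cells that carry GPR183. *Ch25h* did not follow this order and was highest in infarct 3. All 6 B cell markers, 5 of the 5 tested T cell markers and 5 of 7 dendritic cell markers were upregulated, whereas *Flt3* and *Zbtb46* had log2 fold changes of -0.54 and -0.39.

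All 5 fibroblast markers were upregulated, and their sum was 6629 to 8326 CPM in infarcts and 50.6 to 87.7 CPM in contralateral cortices. Endothelium had 3 of 6 markers upregulated, with sums of 480, 385 and 333 CPM in infarcts 1, 2 and 3, and 219 to 242 CPM in contralateral cortices. Of 6 markers each, 3 were upregulated and 0 downregulated for homeostatic microglia and for oligodendrocytes, and 2 were upregulated and 1 downregulated for astrocytes.

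Cytochrome P450 enzymes need electrons from partner proteins. *Por*, the reductase that serves CYP7B1 and CYP46A1 in the endoplasmic reticulum, averaged 145 CPM in the infarct and 47.5 CPM contralaterally, and was 1.61 higher on the log2 scale (edgeR adjusted *p* = 7.84e-06). *Fdxr* and *Fdx1*, which pass electrons to CYP27A1 in mitochondria, had log2 fold changes of 1.20 and 0.63, and of these *Fdxr* alone was upregulated. Tested with glmTreat against a fold change of 2, *Fdxr* lost its call, as did *Hsd17b4*, *Insig1*, and *Esr2*, genes of the lists of bile acid enzymes and sensors. Of the 7 genes of electron supply and cholesterol delivery, 2 were upregulated and 1 was downregulated, with a median log2 fold change of 0.69. The downregulated gene was *Stard4*, a cytosolic sterol carrier, which averaged 24.5 CPM in the infarct and 80.8 CPM contralaterally.

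A further list held other sterol hydroxylases and bile acid enzymes, since oxysterols are intermediates of bile acid synthesis in liver. Of 16 genes, 8 passed the filter on low counts, compared with 15554 of all 46078 genes. Of these 8, 1 was upregulated and 3 were downregulated, with a median log2 fold change of -0.32. The summed level of the list was 197 to 212 CPM in infarcts and 118 to 138 CPM in contralateral cortices. *Scp2* and *Hsd17b4* averaged 92.3 and 76.8 CPM in the infarct. *Cyp7a1*, the first enzyme of the classic route in liver, had 0 counts in every library, which allows up to 0.277 CPM at 3 counts in the smallest library. *Cyp39a1*, the hydroxylase that acts on 24-hydroxycholesterol, averaged 10.5 CPM in the infarct and 7.69 CPM contralaterally (log2 fold change 0.46, edgeR adjusted *p* = 0.141). The upregulated gene was *Hsd17b4*, a peroxisomal enzyme, with a log2 fold change of 1.22. The downregulated genes were *Sult2b1*, a sterol sulfotransferase, *Cyp11a1*, which cleaves the cholesterol side chain, and *Slc27a2*, an acyl-CoA synthetase. Their log2 fold changes were -3.11, -2.70 and -2.67. These rest on few counts in infarcts, at most 8, 7 and 7 in a library. None of these genes was tested when each library had to hold 10 counts. *Scp2* had a log2 fold change of 0.92 and was called at 1.04 without contralateral cortex 1. Without infarct 1, *Cyp3a13* passed the filter and was called. The count of upregulated genes was 2 in each case.

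Inside cells, oxysterols are sensed by LXR, by the INSIG proteins that hold back cholesterol synthesis, and by other receptors. *Nr1h3*, which encodes LXRα, averaged 13.6 CPM in the infarct and 1.10 CPM contralaterally, and was 3.61 higher on the log2 scale (SE 0.27, edgeR adjusted *p* = 2.74e-06). *Nr1h2*, which encodes LXRβ, averaged 20.4 CPM in the infarct and 15.7 CPM contralaterally, which did not pass the test (log2 fold change 0.38, edgeR adjusted *p* = 0.131). Of the 12 genes listed as sensors or their partners, 5 were upregulated and 2 downregulated, with a median log2 fold change of 0.58. Binding of an oxysterol by each product was not tested. *Smo*, *Rxra*, and *Esr2* were among the upregulated genes of this list, with log2 fold changes of 2.37, 1.99 and 1.76, and *Rora* and *Insig1* fell by 1.53 and 1.26 on the log2 scale. *Esr2* had at most 30 counts in a library and lost its call without contralateral cortex 1 (log2 fold change 1.60, edgeR adjusted *p* = 0.0523).

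All 7 LXR target genes of the list were upregulated, with a median log2 fold change of 3.03. *Abca1* and *Abcg1*, which export cholesterol, had log2 fold changes of 4.86 and 2.61, and the smallest rise was 1.76 for *Lpcat3*. The oxysterol-binding proteins are a family that moves sterols between membranes. Of 12 genes, 1 was upregulated, 4 were downregulated and 7 were not called, with a median log2 fold change of -0.06. Some of the 7 missed the fold threshold only. Without that threshold, 4 genes were upregulated and 5 downregulated at an edgeR adjusted *p* below 0.05. The largest decrease was that of *Osbp2*, and the increase called with the threshold was that of *Osbpl11*, with log2 fold changes of -2.86 and 1.49. *Osbp*, the founding member, averaged 79.3 CPM in the infarct and 78.1 CPM contralaterally. *Osbpl9*, at 0.98 on the log2 scale, was called as well without infarct 2, infarct 3 or contralateral cortex 1, which made 2 upregulated genes.

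**Figure D4:**
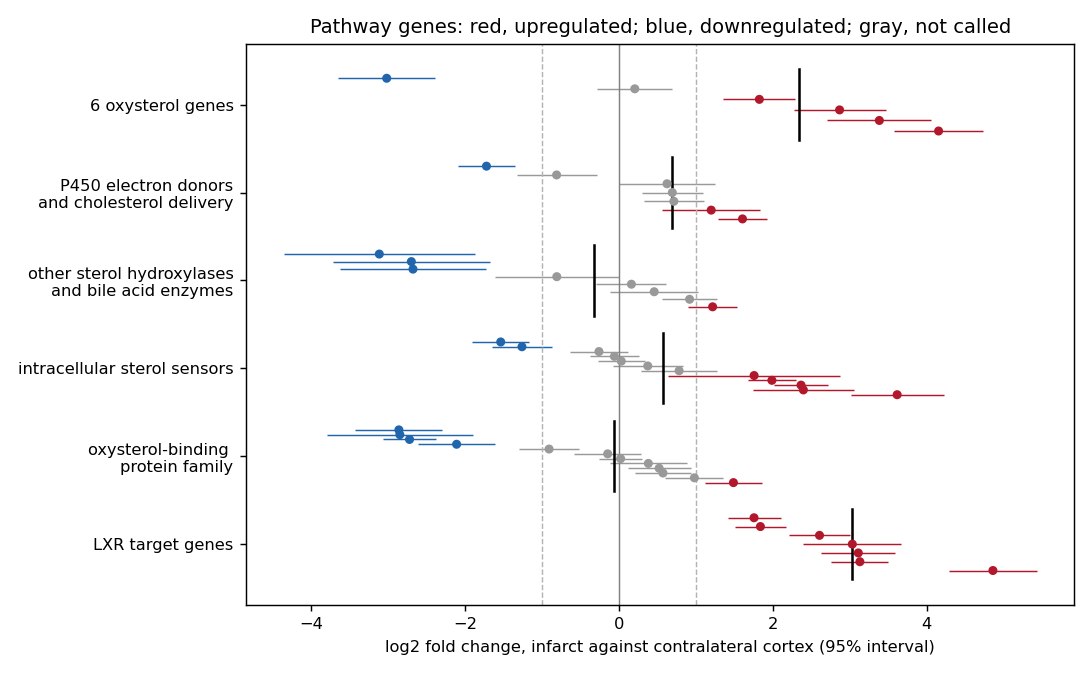
Log2 fold changes of the 6 oxysterol genes and of the tested genes of 5 related lists (horizontal axis, with 95% intervals), with red for upregulated, blue for downregulated and gray for genes that were not called. Black bars mark the median of a list and dashed lines the 2-fold threshold. The 7 LXR target genes all lie above 1, and the oxysterol-binding proteins lie on both sides of 0.

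For each of the 6 genes, the 3 tested genes with the most similar profile over the 6 libraries were found, by the root mean square difference of centered log2 CPM. Such a profile includes the difference between regions, so a near profile does not by itself show expression in the same cells. *Ch25h* was nearest to *Nfam1*, *Cr2*, and *Ccdc88b*, at differences of 0.107, 0.116 and 0.135. *Gpr183* was nearest to *Gm37261*, *Mrc1*, and *Fam107b*, at 0.0815, 0.110 and 0.118, and *Mrc1* is also one of the macrophage markers. *Gm37261* averaged 0.0174 CPM contralaterally, so that its place rests on few counts. *Cyp27a1* was nearest to *Clspn*, *Nod1*, and *Irf9*, and *Hsd3b7* to *Atp8b1*, *Nedd1*, and *Cracr2b*. *Cyp46a1* was nearest to *Brsk2*, *Tceal6*, and *Cdk5r1*, and *Cyp7b1* to *Patz1*, *Bola2*, and *Hint1*. Profiles within 0.2 of a gene's own numbered 19 for *Ch25h*, 29 for *Gpr183* and 27 for *Cyp27a1*, compared with 100 for *Cyp46a1*, 213 for *Hsd3b7* and 410 for *Cyp7b1*.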

How the data were processed

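The 6 libraries were made from 3 infarcts and 3 contralateral cortices. Per the paper's methods and the processing notes of the submitters, the authors prepared stranded mRNA libraries, demultiplexed paired reads with bcl2fastq 2.19, trimmed them with Trimmomatic 0.32, aligned them to GRCm38 with STAR 2.5.2b and counted them with htseq-count. The deposited values are raw counts per Ensembl gene, without normalization. The version, annotation and strand setting of htseq-count are not given in the sources used here. Each table ends with 5 entries for reads without a single gene (26.6% to 34.3% of tallied reads), which were dropped. Counts on genes totaled 12146959 to 13427057 in infarcts and 11943570 to 19933962 in contralateral cortices. Pearson correlations of log2 CPM were at least 0.957 within a region and at most 0.784 between regions, over genes that are not independent replicates. The mitochondrial share was 2.71% to 3.55% for infarcts and 5.50% to 6.66% for contralateral cortices.

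Counts were analyzed with edgeR 4.0.16 in R 4.3.3 (filterByExpr, TMM, region as the only term, robust glmQLFit and glmQLFTest), with Benjamini-Hochberg adjustment over 15554 tested genes. Standard errors are log2 fold changes divided by the square root of *F*. Labels number the replicates without naming the mouse, and *p* values set the difference between regions against the spread between libraries. Ratios were tested by exact permutation over the 20 ways to divide 6 libraries into 3 and 3. Limits at 0 counts use 3 counts and cover counting error only. Symbols, positions and exon lengths come from GENCODE M21 (GRCm38), which held 45143 of the identifiers and lacked 935. The 6 genes and all lists were chosen with earlier results of these data known. Genes named beside the 6 are those that act directly with them (*Por*, *Fdx1*, *Fdxr*, *Nr1h2*, *Nr1h3*, *Abca1*, and *Abcg1*), the largest rise and fall of a list and genes called against its median, genes that overlap the 6 and the 3 nearest profiles of each (prior count 2). *Flt3*, *Zbtb46*, *Itgax*, *Syt1*, *Lyz2*, *Msr1*, *Adgre1*, *Osbp*, *Osbpl9*, *Cyp7a1*, *Cyp39a1*, *Scp2*, *Cyp3a13*, *Lpcat3*, and the further called genes of a list were named after their values were seen. Alternatives were DESeq2 1.42.0, limma 3.58.1 voom, 3 other scalings, 2 other filters on low counts, no fold threshold, glmTreat, the replicate number as a block, each library left out and, added after seeing the data, marker sums without their most abundant gene. The procedure was tested on simulated data. Plots were drawn with matplotlib 3.10.9.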

Additional observations from a re-analysis of the deposited data

How the results depend on the processing

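With each alternative that gave a value, all 6 oxysterol genes kept their direction and their side of the threshold. *Ch25h* was not tested when each library had to hold 10 counts, since contralateral cortex 3 held 6. With each library left out in turn, log2 fold changes were 4.02 to 4.26 for *Ch25h*, 3.08 to 3.60 for *Gpr183*, 2.74 to 3.13 for *Cyp27a1*, 1.73 to 1.93 for *Hsd3b7*, 0.03 to 0.37 for *Cyp7b1* and -3.41 to -2.81 for *Cyp46a1*. Scaling by library totals shifted the median of all genes by 0.20 and gave 0.41 for *Cyp7b1* and -2.80 for *Cyp46a1*. Same-numbered libraries did not deviate together (correlations -0.19, 0.10 and 0.00 across genes), and with the replicate block edgeR called 3945 upregulated and 3222 downregulated genes, compared with 3999 and 3256, and changed no call of the 6 genes. With a pseudocount of 0.1 CPM, the difference in the log2 ratio was 2.23 for *Ch25h* to *Hsd3b7*, 3.82 for *Ch25h* to *Cyp7b1* and -1.42 for *Ch25h* to the macrophage markers. With 1 CPM, the first and last were 1.46 and -2.40. Over all alternatives, the difference for *Ch25h* to *Cyp7b1* ranged from 2.85 to 3.82. Without *Lyz2* in the macrophage sum, an alternative chosen after seeing the data, the difference was reversed to 0.25 for *Ch25h* and was -0.18 for *Gpr183*, -0.65 for *Cyp27a1*, -1.55 for *Hsd3b7* and -3.04 for *Cyp7b1*, since *Lyz2* held most of the infarct sum. Few counts of *Ch25h* in contralateral cortices limit its fold change, and counts of 6 to 16 carry a large counting error.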
